A study of Mus musculus with 32 samples.

Results

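Meningeal fibroblasts were examined in single-cell RNA data from the embryonic mouse dorsal telencephalon, the tissue that forms the cerebral cortex. They were chosen by 3 collagen transcripts, Col1a1, Col1a2 and Col3a1. A barcode with at least 1000 UMIs and 500 genes was taken as a member when these transcripts gave at least 10 UMIs together and when Rgs5, a pericyte gene, and Cldn5, an endothelial gene, gave 0. A UMI (unique molecular identifier) counts 1 captured RNA molecule. This rule found 312 fibroblasts among 143705 barcodes that passed the filters, or 0.217%. The collagen levels, and the absence of Rgs5 and Cldn5, follow from the rule and are given as a description.

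The study compared wild-type (WT) embryos with embryos that carry 1 intact copy of Chd8, which encodes a chromatin remodeller of the CHD family (Chd8+/-, here called Chd8 het). All embryos were of strain C57BL/6J. Tissue came from embryonic day 12.5 (E12.5) and from E14.5, then E16.0, then E17.5, and each of the 8 groups had 4 libraries of 1 embryo each, 32 in all. Each WT embryo was matched to a Chd8 het littermate of its own sex, which gives 16 pairs. Pairs are named by sex and number, M1, M2, F1 and F2. Which part of Chd8 is altered is not given. The labels state that the medial tissue was cut away, but not whether the meninges were peeled off, so a share counts the fibroblasts that came through dissection and capture.

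The meninges are the connective tissue membranes around the brain, and their fibroblasts form 3 layers, the pia on the brain surface, the arachnoid and the outer dura. Pial fibroblasts build the basement membrane to which the end feet of radial glia attach. Meningeal fibroblasts also secrete Cxcl12, which guides migrating Cajal-Retzius cells and interneurons, and make retinoic acid, which acts on the cortex below. Foxc1, a forkhead transcription factor, is needed for the meninges to form.

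Totals per library ran from 20210276 to 66499864 UMIs at E12.5, the stage that carries most results here, and from 14710694 to 48506799 later. At E12.5 the median depth of a passing barcode was 9925 ± 817 UMIs in WT and 6796 ± 2782 in Chd8 het libraries (SD, n = 4 each). Het depth over WT depth was 0.702 for the M1 pair, 1.06 for M2, 0.390 for F1 and 0.603 for F2. The labels add a library code, not explained there, which began alike for the M1, F1 and F2 pairs at E12.5 and otherwise for M2. Some barcode sequences recurred between libraries: 9.38% of all distinct sequences occurred in more than 1 library. Of the 312 fibroblasts 51 had such a sequence, and 0 sequences were fibroblasts in 2 libraries. The first value counts sequences and the second counts barcodes, so they are not comparable.

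The collagen transcripts separated a distinct set of barcodes at E12.5. The 302 fibroblasts of that stage had a median of 53 collagen UMIs, with a highest value of 267, in a median of 11495 UMIs. Among the 40490 other barcodes of the stage 96.7% had 0 collagen UMIs and 99.6% had at most 1. Few barcodes lay near the threshold: 6 that met the other criteria had 5 to 9 collagen UMIs, with a median depth of 3978 UMIs, and 10 had 10 to 14, with a median depth of 5313. The exclusion of Rgs5 and Cldn5 left out 65 of the 367 barcodes with at least 10 collagen UMIs.

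Genes outside the rule bore out a fibroblast label at E12.5. Whether members came from the meninges or from skull or other head mesenchyme was not tested. The levels below are in CPM, the UMIs of a gene scaled to a total of 1e6 UMIs, in the summed fibroblasts of a library, given as the mean ± SD over the 8 libraries of E12.5. Each UMI marks 1 3′ end, so no scaling by gene length was made. Lum (lumican) and Dcn (decorin), small proteoglycans that bind collagen fibrils, stood at 3057 ± 601 and 1043 ± 222 CPM, against 2.55 and 2.80 in all other barcodes. Zic1, a transcription factor of meningeal cells, stood at 516 ± 79.0, Tbx18, a T-box factor of mesenchymal and mural cells, at 314 ± 43.3, and Foxc1 at 180 ± 33.4. Pdgfra, a growth factor receptor of fibroblasts, stood at 88.4 ± 18.5. In pericyte-like barcodes, defined below, Tbx18 stood at 105 CPM and Foxc1 at 76.4, against 5.99 for Lum and 0 for Dcn. Foxc1 stood at 85.8 CPM in endothelial-like barcodes, also defined below. Of the 12 listed fibroblast markers outside the rule, 11 were at least 5 times as high as in the other barcodes, at 10 CPM or more. The exception, Ptgds, an enzyme of prostaglandin D2 synthesis that marks the mature arachnoid, had 0 UMIs in every one of these libraries.

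Marker lists of other cell types were read in the fibroblasts, and those of pericytes and radial glia were not low. The 8 endothelial markers, Cldn5 of the rule among them, summed to between 24.3 and 64.05 CPM per library. Egfl7, the highest, stood at 31.5 CPM and Pecam1 at 1.66, against 1101 and 392 in 145 endothelial-like barcodes of E12.5. These were defined by at least 3 UMIs of Cldn5, 0 of Rgs5 and under 10 collagen UMIs. Microglial and macrophage markers summed to between 0 and 18.02 CPM per library, and interneuron markers to at most 10.6 CPM. Bone and cartilage markers summed to between 21.1 and 96.1 CPM, of which Col2a1, a cartilage collagen, gave 31.8 ± 12.3, Ibsp was at 0, and the sum was 156 in other barcodes. Among pericyte markers Higd1b and Myh11 were at 0. Vtn and Pdgfrb stood at 815 and 90.0 CPM, against 843 and 253 in pericyte-like barcodes. These were defined by at least 3 UMIs of Rgs5, 0 of Cldn5 and under 10 collagen UMIs. Acta2, a smooth muscle actin, ranged from 0 to 185 CPM over libraries and was found in 15.6% of fibroblasts (9.61% when thinned to 5000 UMIs) and in 0% of endothelial-like barcodes, and Notch3 and Kcnj8 stood at 13.3 and 13.4 CPM. Excitatory neuron markers summed to between 38.4 and 431 CPM, against 1399 in the other barcodes. Their highest sum was in Chd8 het M2, and radial glia markers summed to between 1267 and 2457 CPM, of which Vim, also a fibroblast gene, gave 1312 ± 262.

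**Figure D1:**
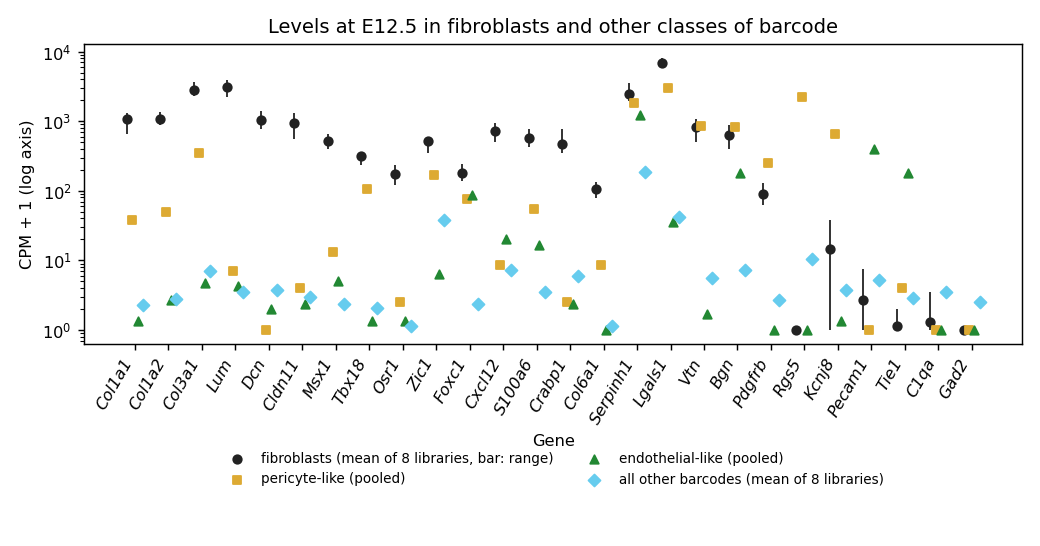
Level (CPM + 1, log axis) of 26 genes at E12.5. Black points are the mean of 8 libraries of fibroblasts with the range over libraries. Yellow and green symbols are pooled pericyte-like and endothelial-like barcodes, which hold under 10 collagen UMIs each by definition. Blue symbols are all other barcodes. Lum, Dcn, Cldn11, Msx1 and Cxcl12 are high in fibroblasts and low in the other classes, Vtn and Bgn are as high in pericyte-like barcodes, and Rgs5, Pecam1, Tie1, C1qa and Gad2 lie near the floor in fibroblasts.

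At a fixed depth 5 of the 12 listed fibroblast markers outside the rule were detected in most single members. When each barcode was thinned to 5000 UMIs, which left out 21 of the 302 fibroblasts, Lum was detected in 98.9% of the rest, Dcn in 90.4%, Cxcl12 in 92.9%, Zic1 in 91.1%, Msx1 in 84.7%, Cldn11 in 84.0% and Tbx18 in 73.3%. The same shares in thinned endothelial-like barcodes, of which 13 were left out, were 0.758%, 0%, 5.30%, 3.03%, 0.758%, 1.52% and 0%. Pericyte-like barcodes were not thinned, so these shares do not set the members against that class. Cxcl12, Msx1 and Cldn11 are not among the 12 markers but come from other lists. Foxc1 was found in 56.2% of fibroblasts and in 24.2% of endothelial-like barcodes. The other 7 markers outside the rule were found in fewer members: Col6a1 in 40.9%, Pdgfra in 33.8%, Col5a1 in 31.7%, Slc6a13 in 13.9%, Twist1 in 11.4%, Aldh1a2 in 6.41% and Ptgds in 0%. Without thinning, Lum was found in 99.0% of fibroblasts and in 5.52% of endothelial-like barcodes, and Foxc1 in 81.1% and 51.7%, at median depths of 11495 and 16062 UMIs.

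Matrix genes were prominent among the genes of highest ratio to other barcodes. Over genes of at least 100 CPM, the first places in the ranking of fibroblast CPM over other CPM went to Lum, Osr1, Col1a1, Lox and Col6a1, of which Col1a1 was fixed by the rule. The ratio was 1201 for Lum, 1136 for Osr1, 791 for Lox and 696 for Col6a1, and the last 3 stood at 0.128 to 0.152 CPM in other barcodes. Of the 10 listed collagen chains outside the rule, 9 were at least 5 times as high as in the other barcodes at 10 CPM or more. This held for 12 of 21 proteoglycans and matrix glycoproteins and for 13 of 17 genes of collagen assembly, and for 8.87% of the 5623 genes tested below. The fibril chains Col1a1, Col1a2 and Col3a1 stood at 1073 ± 235, 1086 ± 172 and 2849 ± 487 CPM. Serpinh1, the chaperone of newly made collagen, stood at 2470 ± 501, and Lox, which cross-links collagen, at 102 ± 41.9. Col26a1, a minor collagen, stood at 380 ± 50.7, and Fbn2, a microfibril protein of embryonic tissue, at 258 ± 64.5. Lgals1, which encodes a galectin, a sugar-binding protein, stood at 6802 ± 868 CPM, against 41.0 in other barcodes and 3023 in pericyte-like barcodes. The basement membrane chains Col4a1, Lamb1 and Nid1 stood at 525 ± 90.3, 154 ± 23.2 and 170 ± 31.5, and were at 591, 109 and 211 CPM in pericyte-like barcodes.

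Transcription factors of the skull and meninges filled a second group. Of 23 such factors listed, 19 were at least 5 times as high as in other barcodes at 10 CPM or more, beside 8.87% of all genes tested. Msx1, a homeobox factor of cranial mesenchyme, stood at 525 ± 93.8 CPM, Osr1, a zinc finger factor of connective tissue, at 172 ± 35.1, and Prrx1 and Prrx2, homeobox factors of mesenchyme, at 133 ± 37.2 and 132 ± 36.0. Tfap2b, which acts in neural crest derivatives, stood at 73.5 ± 35.3, and Twist1, a factor of cranial mesenchyme, at 22.7 ± 11.3. Meox1, a factor of the somites, had 0 UMIs. Ebf1 stood at 451 CPM in the pooled pericyte-like barcodes, which have no replicate error, and at 151 ± 40.8 in fibroblasts.

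Genes for signals to the cortex and for exchange with blood and fluid were also read. Cxcl12 stood at 726 ± 162 CPM, against 6.16 in other barcodes and 7.49 in pericyte-like barcodes. Bmp4 and Bmp7, which encode bone morphogenetic proteins, stood at 59.2 ± 21.3 and 94.9 ± 32.2, and Igf2, a growth factor, at 242 ± 74.97. In the retinoic acid pathway Rdh10, which makes retinal from retinol, stood at 111 ± 36.4, and Aldh1a2, which makes retinoic acid from retinal, at 16.7 ± 12.1. The carrier Crabp1, which binds retinoic acid in the cytoplasm, stood at 463 ± 134, and the receptor Rarb at 55.4 ± 18.7. Aldh1a1 and Cyp26a1 were at 0. The tight junction gene Cldn11, known from the arachnoid barrier, stood at 929 ± 282, and Gja1, a gap junction gene, at 813 ± 67.7. Slc6a13, a GABA transporter of meninges, stood at 46.0 ± 19.6, and Slc22a6, an organic anion transporter, at 12.8 ± 7.22.

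The fibroblasts were not uniform, and clustering of their own genes gave 5 clusters, described here with no test. Clusters 1 (127 members) and 3 (42) were alike in their layer genes, as were clusters 2 (83) and 4 (42), and clusters 3 and 4 were set apart by mitotic genes. Listed dural and skull mesenchyme genes summed to 427 and 466 CPM in clusters 1 and 3 and to 92.9 and 142 in clusters 2 and 4. Listed pial genes summed to 1192 and 1111 CPM in clusters 1 and 3 and to 2158 and 1829 in clusters 2 and 4. The basement membrane genes followed the pial genes, with 1252 and 1416 CPM against 2372 and 2181. Listed pericyte and mural markers moved with this division, at 785 and 441 CPM against 1316 and 1192, with Vtn at 592 and 374 against 1126 and 1007 and Pdgfrb at 76.3 and 46.8 against 101 and 109. Rgs5 is 0 in all members by the rule, and the part of pericyte RNA in the division was not tested.

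Single genes showed the same division. Dkk2, an inhibitor of Wnt signalling, stood at 251 and 318 CPM in clusters 1 and 3, against 33.7 and 52.9 in clusters 2 and 4. Ogn (osteoglycin) stood at 119 and 87.9 against 9.29 and 12.5, and the homeobox gene Msx2 at 81.9 and 61.7 against 2.32 and 7.78. In the other direction Rdh10 stood at 38.1 and 54.2 in clusters 1 and 3 and at 185 and 191 in clusters 2 and 4, and Cldn11 at 538 and 613 against 1670 and 1114. Of the other listed arachnoid genes Slc6a13 divided as Cldn11 did, at 19.1 and 29.9 against 60.4 and 57.6, and 4 divided the other way. Crabp2, a retinoic acid carrier, stood at 193 and 219 in clusters 1 and 3 against 37.1 and 48.3, and Angptl2, a secreted glycoprotein, at 59.3 and 44.9 against 13.9 and 10.9. Aldh1a2 stood at 34.6 and 16.8 against 4.64 and 1.56, and Wnt6, a Wnt ligand, at 26.8 and 31.8 against 6.97 and 12.5. Lum stood at 2896 and 2461 CPM in clusters 1 and 3 and at 3398 and 2918 in clusters 2 and 4. Mitotic genes summed to 551 and 875 CPM in clusters 1 and 2 and to 4223 and 4862 in clusters 3 and 4. Growth arrest genes, led by Cdkn1c, an inhibitor of cell cycle kinases, summed to 3447 and 2873 in clusters 1 and 3 and to 1431 and 1636 in clusters 2 and 4. Clusters 1 to 4 each held members from all 8 libraries of E12.5.

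Cluster 5 (18 members) was led by neuronal and progenitor genes. Its first genes were Lhx2 and Neurod6, factors of the developing cortex, at 421 and 163 CPM, against 35.3 and 6.37 in the other members. It also had the highest median depth, 17918 UMIs, and excitatory neuron markers summed to 956 CPM in it. Doublets were not called, so barcodes that hold 2 cells are not told apart from single cells in this cluster. Of the 302 fibroblasts at E12.5, 21 had at least 0.2% neural marker UMIs.

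**Figure D2:**
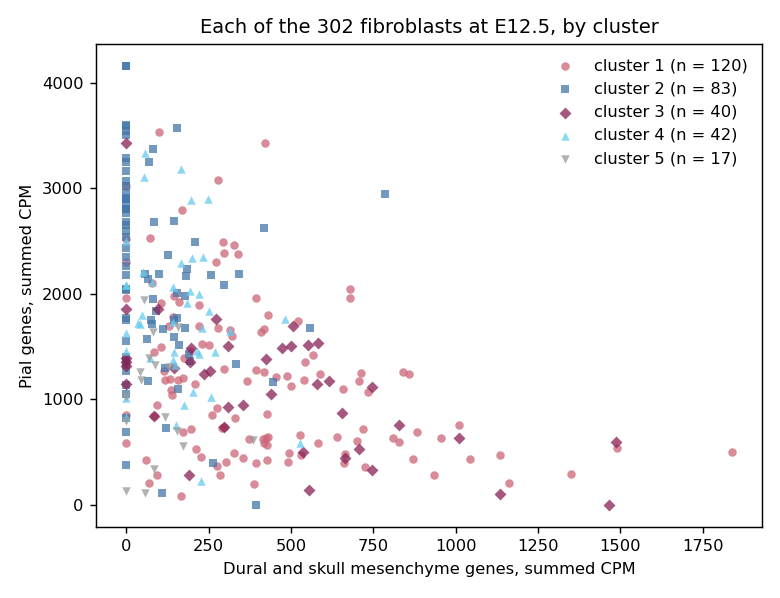
Each point is 1 of the 302 fibroblasts at E12.5. The x axis is the summed CPM of the listed dural and skull mesenchyme genes and the y axis that of the listed pial genes, with clusters by colour and symbol. Clusters 2 and 4 lie to the upper left and clusters 1 and 3 extend to the right, and the clusters were built from the same genes.

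Fibroblasts were almost confined to E12.5. That stage held 302 of the 312, or 96.8%, with a mean share of 0.723% ± 0.304 of passing barcodes (SD, n = 8 libraries) and members in 8 of 8 libraries. The mean share was 0.0176% ± 0.0282 at E14.5 (6 members in 3 libraries), 0.00169% ± 0.00479 at E16.0 (1 member) and 0.00871% ± 0.0246 at E17.5 (3 members in 1 library). With a threshold of 10 collagen UMIs per 1e4 UMIs, E17.5 held 12 members in WT M1 and 2 in het M1, with means of 0.0697% in WT and 0.0204% in het, against 0.0174% and 0. The share was 0.715 percentage points lower at E17.5 than at E12.5 (p = 0.000155, exact permutation test, two-sided, 8 against 8 libraries, the smallest p it allows). All libraries of E12.5 lay above all libraries of the later stages. Pericyte-like barcodes, counted in the same libraries, had shares of 0.181% ± 0.0792, 0.296% ± 0.0995, 0.484% ± 0.136 and 0.583% ± 0.185 at the 4 stages. This class leaves out collagen-rich barcodes, so its shares depend on the definition. At E12.5, 60 barcodes with Rgs5 had at least 10 collagen UMIs, beside 74 pericyte-like barcodes. At later stages at most 2 barcodes per library with at least 10 collagen UMIs had Rgs5 or Cldn5. For groups with 0 members, the count of 0 allows a share of up to 0.0157% in WT at E16.0 and 0.0223% in Chd8 het at E17.5, for counting error only. The median depth of a passing barcode in WT libraries was 9925, 7545, 5615 and 4754 UMIs at the 4 stages. With barcodes thinned to 2000 UMIs, which left out shallower barcodes (0 WT and 475 het barcodes at E12.5, 341 and 559 at E17.5), the difference from E12.5 to E17.5 was -0.357 points (p = 0.000155, exact permutation test).

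Most of the 10 later members lacked several genes that mark the fibroblasts of E12.5. At E14.5, 3 were in WT M1, 1 in WT F2 and 2 in Chd8 het M1, and at E16.0 the only member was in Chd8 het M2. The WT F2 member had 21 UMIs of Lum, 27 of Dcn, 6 of Foxc1, 26 of Cldn11, 7 of Tbx18 and 9 of Msx1. The other 6 members of E14.5 and E16.0 had between 4 and 37 UMIs of Lum and between 3 and 92 of Dcn, but 0 of Foxc1, Cldn11, Tbx18 and Msx1. These 6 had between 1 and 19 UMIs of Cxcl12, 4 of them had between 1 and 4 of Zic1, and 5 had between 1 and 3 of Ogn. The 3 members of E17.5, all in WT M1, had between 2291 and 3917 UMIs in all, at most 1 of Lum or Dcn, and 0 of Foxc1, Zic1, Cxcl12 and Cldn11. For these 3 the label rests on the collagen of the rule, and the later stages are given by count and the expression results below are from E12.5.

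At E12.5 the share of fibroblasts was lower in the Chd8 het embryo of every pair, as paired by sex and number. In WT libraries M1 had 0.696% (40 fibroblasts), M2 0.966% (42), F1 0.727% (36) and F2 1.30% (75). In Chd8 het libraries M1 had 0.388% (17), M2 0.558% (29), F1 0.390% (17) and F2 0.761% (46). Het F2 was above WT M1 and F1, so the groups overlapped. The ratio of het to WT lay between 0.536 and 0.585 in the 4 pairs. How the females are paired is not settled, so this range and the agreement over pairs depend on the numbering. Paired the other way, WT F1 (0.727%) would meet het F2 (0.761%), which is higher. The means were 0.923% ± 0.280 in WT and 0.524% ± 0.177 in het (SD, n = 4 each), a difference of -0.398 percentage points that did not pass the test (p = 0.0857, adjusted p = 0.343 over 4 stages, exact permutation test, two-sided; the smallest p that 4 against 4 allows is 0.0286).

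With the pair as a block, the sign-flip test of the 4 pairs gave p = 0.125 (exact permutation test), the smallest p it allows. This too depends on how the females are paired. The exact 95% binomial interval of a single library was wide: it ran from 0.226% to 0.620% in het M1 and from 1.02% to 1.63% in WT F2. These intervals cover counting error only.

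The M1, F1 and F2 pairs, whose codes begin alike, had ratios of 0.557, 0.536 and 0.585, and the M2 pair had 0.578. With a threshold that scaled with depth, the ratios were 0.623, 0.592, 0.536 and 0.602 in M1, M2, F1 and F2. A share is relative to all passing barcodes, so fewer fibroblasts and more of the other cells cannot be told apart, nor can unequal amounts of meninges left on the tissue. Endothelial-like barcodes had shares of 0.347% ± 0.242 in WT and 0.353% ± 0.201 in het, and pericyte-like barcodes had 0.151% ± 0.0264 and 0.211% ± 0.108. By definition these classes leave out barcodes with at least 10 collagen UMIs and Rgs5 or Cldn5. Those numbered 13, 8, 9 and 13 in WT M1, M2, F1 and F2 and 5, 6, 4 and 7 in het. Their effect on these shares was not tested.

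At the later stages, with 0 to 3 members per library, the het minus WT difference was -0.0109 points at E14.5 (adjusted p = 1, exact permutation test). It was 0.00338 at E16.0 and -0.0174 at E17.5. In each of these later stages only 1 library had members, so every split gives the same absolute difference. The exact permutation test could therefore not tell the genotypes apart there, and both stages enter the adjustment at E12.5. Averaged over stages it was -0.106 points (p = 0.0343, permutation test within stages, two-sided). With the pair as a block p was 0.0156 (exact permutation test), with het lower in 7 pairs, higher in 1 and tied at 0 in 8. Of the 7, 4 were the pairs of E12.5, which alone gave p = 0.125 (exact permutation test). The lower p thus rests on later pairs with 0 to 3 members per library. The averaged difference lay between -0.126 and -0.0743 points with any 1 library left out, and its p depended on which. Without any 1 of WT M2, WT F2, het M1, het M2 or het F1 at E12.5, WT M1 at E14.5 or WT M1 at E17.5, p was between 0.0538 and 0.0972 (permutation test). With a threshold of 20 collagen UMIs the difference at E12.5 was -0.454 points, and with barcodes thinned to 2000 UMIs, which left out 449 of the 4362 barcodes of het F1, it was -0.286, each with p = 0.0286 (exact permutation test, unadjusted). At that depth the pair ratios were 0.340 in M1, 0.633 in F1, 0.489 in F2 and 0.246 in M2.

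**Figure D3:**
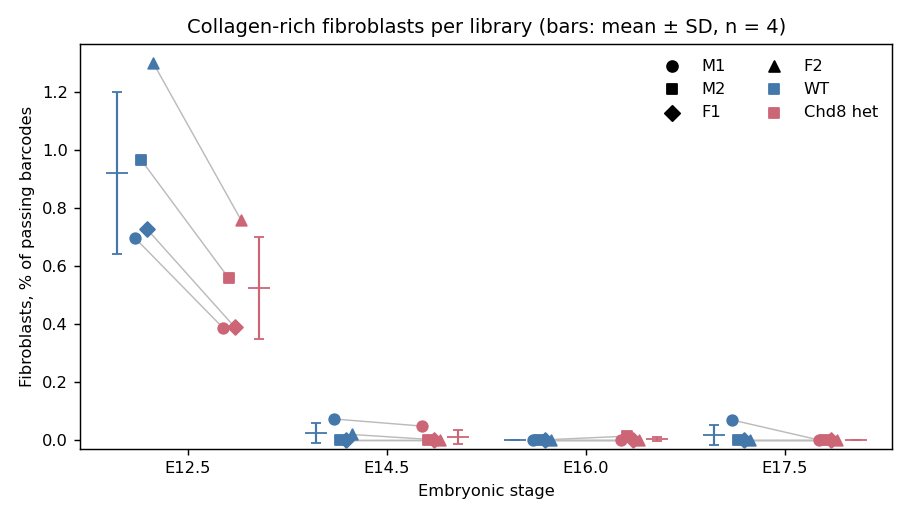
Fibroblasts as a percentage of passing barcodes (y axis) in each of the 32 libraries, by stage (x axis). WT is blue and Chd8 het red, symbols give the replicate, grey lines join pairs of the same sex and number, and bars are mean ± SD (n = 4). At E12.5 all 4 lines run lower in het, with means of 0.923% and 0.524%, and the later stages lie near 0.

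Gene levels in the fibroblasts were compared between genotypes at E12.5, where all 8 libraries had at least 10 members. Chd8, the targeted gene (ENSMUSG00000053754), lies on chromosome 14 from 52198151 to 52257780 on the minus strand of GRCm38, and its span holds Snord8 and, on the other strand, Gm26590. It stood at 48.2, 34.4, 26.6 and 37.5 CPM in WT M1, M2, F1 and F2 and at 19.2, 21.1, 0 and 10.0 CPM in the Chd8 het libraries of the same names. Every het value was below every WT value, but the 0 in het F1 rests on 94724 UMIs, and a count of 0 allows up to 31.7 CPM there. By edgeR's quasi-likelihood test its log2 fold change was -1.31 (SE 0.38; unadjusted p = 0.0019, adjusted p = 0.399), so Chd8 was not called in the fibroblasts. In all other barcodes of the same libraries it was -0.36 (SE 0.13, adjusted p = 0.162 by edgeR). The test of the difference between fibroblasts and other barcodes gave -1.01 (SE 0.37; unadjusted p = 0.0094, adjusted p = 0.999, edgeR).

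No gene was called between genotypes in the fibroblasts. Of 5623 genes tested, 0 passed an adjusted p of 0.05 by edgeR (0%), and DESeq2 also called 0. At an unadjusted p under 0.05, 193 were higher in het (3.43%) and 236 lower (4.2%). Fitting the pair, taken by sex and number, as a block called 14 genes (0.249%), of which 11 were higher in het and 3 lower. Another pairing of the females was not fitted. Every het library lay above every WT library for 122 genes (2.17%) and below for 158 (2.81%). The call depended on 1 library: without het M2 the count was 76, of which 62 were higher, and without the whole M2 pair, whose code differs from the others, it was 48. Het depth over WT depth was 1.06 in the M2 pair and 0.702, 0.390 and 0.603 in M1, F1 and F2. Of the 29 members of het M2, 5 were in cluster 5. The part of depth or of cluster 5 in these calls was not tested.

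The 5 genes of lowest p that were higher in het were Gadd45g, Ap2m1, Myl9, H2afz and Armcx3, and none was called in this fit. Gadd45g, a growth arrest and DNA damage gene, stood at 100, 118, 104 and 122 CPM in WT M1, M2, F1 and F2 and at 167, 157, 264 and 258 in het, with no overlap (log2 fold change 0.90, SE 0.18, adjusted p = 0.169 by edgeR). With the pair as a block its adjusted p was 0.0157 by edgeR. H2afz, which encodes the histone variant H2A.Z, stood at 472 ± 33.3 in WT and 742 ± 119 in het, and Myl9, a myosin light chain of contractile cells, at 272 ± 35.0 and 435 ± 92.6 CPM (SD, n = 4 each). Ap2m1, an adaptor subunit of clathrin coats, stood at 171 ± 28.2 and 294 ± 59.5, and the X-linked gene Armcx3 at 33.5 ± 3.30 and 74.7 ± 33.99. The groups did not overlap for H2afz, Myl9 and Armcx3 and overlapped for Ap2m1, and het was higher in 4 of 4 pairs for each. As the 5 genes were chosen by p in the same libraries, non-overlap and agreement over pairs are a description. Over all genes tested 2.17% had every het library above every WT library. The adjusted p with the block was 0.0446 for Ap2m1, 0.0446 for Myl9, 0.0367 for H2afz and 0.0487 for Armcx3 by edgeR.

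Rps12, Tpt1, Clmp and Slc1a3 were among the 5 genes of lowest p that were lower in het, and none was called in this fit. Rps12, a ribosomal protein gene, stood at 2263 ± 322 in WT and 1426 ± 282 in het, and Tpt1, a growth-related cytoplasmic protein, at 2267 ± 195 and 1502 ± 293 CPM. Clmp, a cell adhesion molecule, stood at 105 ± 25.5 and 52.7 ± 10.97, and Slc1a3, a glutamate transporter also found in radial glia, at 252 ± 64.8 and 141 ± 38.5. For these 4 het was below WT in 4 of 4 pairs with no overlap, and with the block Rps12 was called (adjusted p = 0.0487 by edgeR) and Tpt1, Clmp and Slc1a3 were not (adjusted p = 0.0800, 0.0697 and 0.102). As they too were chosen by p in the same libraries, non-overlap and agreement over pairs are a description. Over all genes tested 2.81% had every het library below every WT library.

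These genes were also read outside the fibroblasts. In all other barcodes of the same libraries the log2 fold change was 0.67 for H2afz, 0.60 for Myl9, 0.59 for Gadd45g, 0.49 for Ap2m1, -0.62 for Rps12 and -0.50 for Tpt1, against 0.65, 0.70, 0.90, 0.72, -0.64 and -0.57 in fibroblasts. It was 0.60 for Armcx3, -0.42 for Clmp and -0.22 for Slc1a3, against 1.11, -0.88 and -0.72 in fibroblasts, and for Slc1a3 the difference was -0.57 (SE 0.17, adjusted p = 0.999 by edgeR). The test of the difference between fibroblasts and other barcodes called 0 of 5623 genes by edgeR (0%), with 238 at an unadjusted p under 0.05 (4.23%), and DESeq2 called 1, Col1a2, a gene of the rule. The lowest adjusted p, 0.066, was that of Wls, which carries Wnt proteins to the cell surface: its log2 fold change was 0.20 in fibroblasts and -0.77 in other barcodes. Wls was chosen for its place in this ranking. It was called by edgeR in 5 of 17 alternatives, among them without WT M1 (adjusted p = 0.00692) and without WT M2 (adjusted p = 0.00531), and its adjusted p was 0.9996 without WT F2.

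Other genes called with the pair as a block were Actb, Pfn1, Dnajb6, Ndufa1, Usp50 and Bloc1s1, which were higher, and Crym, which was lower. Actb and Pfn1 encode actin and an actin-binding protein. Actb stood at 7528, 3657, 6211 and 6102 CPM in WT M1, M2, F1 and F2 and at 14308, 4372, 15012 and 9022 in het, higher in 4 of 4 pairs with overlap between groups. Crym, which encodes crystallin mu, a thyroid hormone binding protein, stood at 126 ± 77.2 and 54.6 ± 41.3 CPM, lower in 4 of 4 pairs. Their log2 fold changes with the block were 0.77 and -1.05, with adjusted p of 0.0157 and 0.0367 by edgeR. Without the block the log2 fold change of Crym was -1.21, and it was -2.02 without het F2 and -0.77 without het M2, with an adjusted p of 0.476 by edgeR without the M2 pair. That of Actb was 0.89, and 0.21 in libraries of at least 20 members.

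Crlf2, Zcwpw1, Car14 and Gsta4, listed from earlier results over all cells of these libraries, were low in the fibroblasts. Crlf2, a cytokine receptor gene, had between 0 and 14 UMIs per library and stood at 15.3 ± 6.72 CPM in WT and 15.5 ± 11.02 in het, while its log2 fold change in other barcodes was 0.80 (adjusted p = 0.0498 by edgeR). Zcwpw1 stood at 17.9 ± 5.86 and 21.6 ± 8.79, and Car14 at 5.45 ± 3.69 and 11.1 ± 6.83, and these 3 did not pass the filter on low counts. Gsta4, a glutathione transferase, stood at 37.3 ± 4.93 in WT and 14.1 ± 10.3 in het, with 0 UMIs in het F1 (log2 fold change -0.99, SE 0.35, adjusted p = 0.510 by edgeR).

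**Figure D4:**
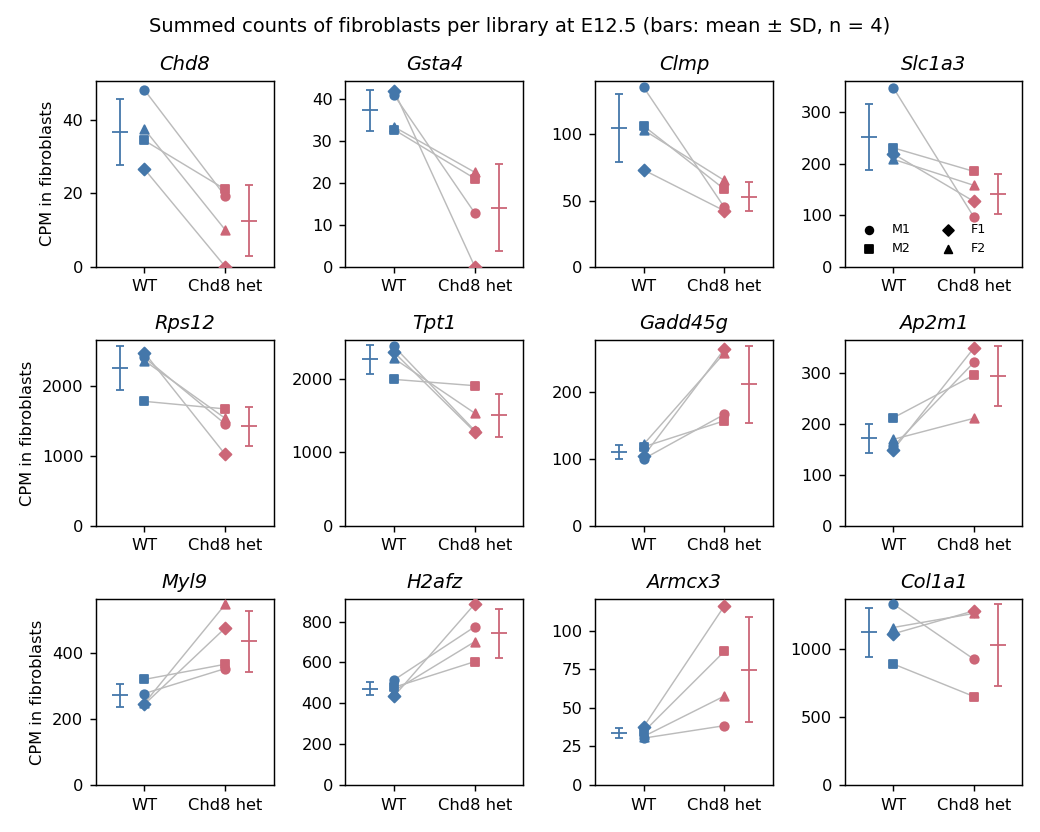
CPM (y axis) of 12 genes in the summed fibroblasts of each library at E12.5, in WT (blue) and Chd8 het (red). Symbols give the replicate, grey lines join pairs, and bars are mean ± SD (n = 4). Chd8 is lower in every het library, Chd8 and Gsta4 are at 0 in het F1, Gadd45g is higher in every het library, and the groups overlap for Col1a1.

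Matrix genes did not differ from other genes in calls between genotypes, since 0 of all 5623 genes tested were called in the fibroblasts. Alternatives called single matrix genes, among them Tnc without the filter on low counts and Spock3 without the M2 pair. Col1a1 stood at 1120 ± 181 CPM in WT and 1027 ± 300 in het, Col1a2 at 1175 ± 164 and 996 ± 144, and Col3a1 at 2860 ± 311 and 2839 ± 676 (SD, n = 4 each). As genes of the rule these are a description. Lum stood at 2734 ± 556 and 3381 ± 505 (log2 fold change 0.32, SE 0.15, adjusted p = 0.618 by edgeR) and Dcn at 1117 ± 251 and 968 ± 192 (-0.19, SE 0.16, adjusted p = 0.811). Without het M2 the log2 fold change of Col1a1 was 0.10 in place of -0.12. A p above the threshold does not show that the levels are equal.

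Gene lists were read by their medians, beside -0.01 for the median log2 fold change of all 5623 genes tested. The median was -0.12 for 11 tested collagen chains of 13 (-0.08 for the 8 outside the rule), 0.02 for 15 of 17 genes of collagen assembly, -0.12 for 13 of 16 basement membrane genes and -0.17 for 14 of 21 proteoglycans and glycoproteins. It was -0.19 for 6 pial genes, -0.05 for 4 of 7 arachnoid genes, -0.07 for 4 of 10 dural and skull genes and 0.13 for 6 of 16 retinoic acid genes. It was -0.27 for 18 of 29 secreted signals, -0.08 for 13 of 16 receptors, -0.01 for 8 of 21 transporter and barrier genes, 0.10 for 18 of 19 genes of G1/S and S phase, -0.14 for 20 mitotic genes, -0.02 for 7 of 9 growth arrest genes and 0.11 for 11 of 12 immediate early and heat shock genes. In each list 0 genes were called, as over all 5623 genes tested. Listed genes called in alternatives included Egr1 and Slbp without the M2 pair and Notch2 and Slbp without het M2.

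The lists with the lowest medians held factors and signals. Of 23 meningeal and mesenchymal transcription factors 16 were tested, 12 of them with a log2 fold change below 0, and their median was -0.25. Over all genes tested 2889 of 5623 were below 0. At an unadjusted p under 0.05, 3 of the 16 factors were lower, where 4.2% of all genes were, and 0 were higher. Foxd1, a forkhead factor, stood at 90.0 ± 14.1 CPM in WT and 46.3 ± 13.6 in het, Foxc1 at 205 ± 26.8 and 155 ± 14, and Osr1 at 195 ± 29.2 and 149 ± 25.6 (log2 fold changes -0.92, -0.44 and -0.46, adjusted p = 0.399, 0.510 and 0.510 by edgeR). For Foxd1 and Foxc1, and also for Zic1, at 570 ± 18.6 and 462 ± 80.9, every het library lay below every WT library, as for 2.81% of all genes. The summed CPM of the 23 factors ranged from 2498 to 3029 in WT libraries and from 2386 to 2491 in het. Foxc1, Foxd1 and Zic1 were chosen here after their values were seen. In all other barcodes the median log2 fold change was -0.40 for the 16 tested factors and -0.27 for the 18 tested secreted signals. It was 0.04 there for all genes tested.

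Of the 18 tested secreted signals 12 had a log2 fold change below 0 and 6 above. At an unadjusted p under 0.05 by edgeR 4 were lower and 0 higher, where 4.2% of all genes were lower. Among those below 0 Igfbp4, which binds insulin-like growth factors, stood at 669 ± 58.3 CPM in WT and 438 ± 114 in het (log2 fold change -0.55, adjusted p = 0.399 by edgeR). Igf2, also below 0, stood at 292 ± 76.7 and 192 ± 25.4 (-0.59, adjusted p = 0.510 by edgeR). Cxcl12 had a log2 fold change of -0.29 (adjusted p = 0.698 by edgeR). H19, the imprinted RNA next to Igf2, stood at 348 ± 60.6 and 229 ± 41.1 (-0.55, adjusted p = 0.399 by edgeR). In other barcodes of these libraries Igf2 and H19 had log2 fold changes of -0.44 and -0.57, and Igfbp4 had -0.40. Of 9 CHD remodellers 6 were tested, and 0 had a log2 fold change above 0, where 2889 of all 5623 genes were below 0. Their median was -0.21 in fibroblasts and -0.27 in other barcodes, beside -0.01 and 0.04 for all genes tested. After Chd8 the lowest was Chd3, at 144 ± 19.7 and 101 ± 21.2 CPM (-0.47, adjusted p = 0.592 by edgeR), with -0.47 in other barcodes. Together the 9, Chd8 among them, ranged from 397 to 523 CPM in WT libraries and from 264 to 363 in het. Of single genes tested, 2.81% had every het library below every WT library.

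Fibroblast transcripts were also counted outside the fibroblasts. In all other barcodes of E12.5, where Col1a1 and Dcn stood at 1.28 and 2.80 CPM, their log2 fold changes in het were -1.23 and -1.07, against -0.12 and -0.19 within the fibroblasts. The 10 tested fibroblast markers outside the rule had a median of -0.70 in other barcodes and -0.10 in fibroblasts. The rule takes collagen-rich barcodes out of the others, so the value of Col1a1 there is a description. The other barcodes include those with at least 10 collagen UMIs that were left out for Rgs5 or Cldn5, which numbered 13, 8, 9 and 13 in WT M1, M2, F1 and F2 and 5, 6, 4 and 7 in het. Their part in these values was not tested.

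**Figure D5:**
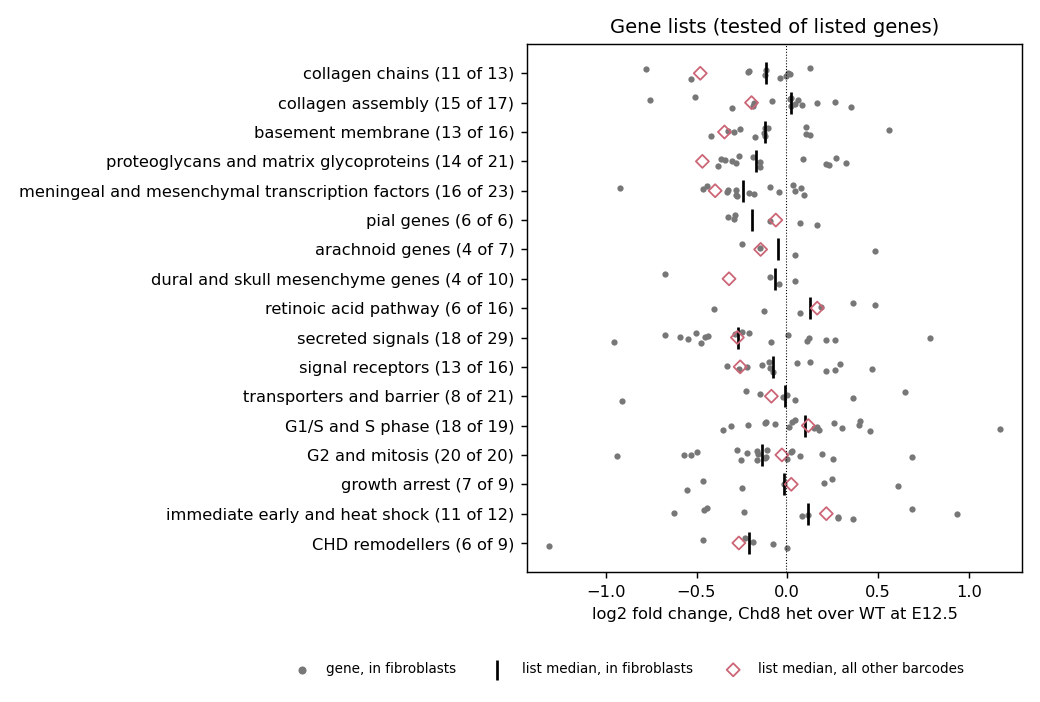
Log2 fold change of Chd8 het over WT at E12.5 (x axis) for the tested genes of 17 lists (y axis, tested of listed genes). Grey points are genes in fibroblasts, black bars the list medians in fibroblasts and red diamonds the list medians in all other barcodes, and the dotted line is the median of all 5623 genes in fibroblasts, -0.01; the collagen chains include the 3 of the rule. The medians in fibroblasts lie between -0.27 and 0.13, and Chd8, at -1.31, is the lowest point.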

How the data were processed

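The authors deposited UMI counts per gene and barcode, not normalised, for 32 libraries of 1 embryo each. STAR 2.7.9a, STARsolo, Cell Ranger and build mm10 are named in the submitters' processing notes, with no role given. The members and gene lists were chosen with earlier results of these data known. Barcodes with at least 1000 UMIs and 500 genes were kept, and doublets were not called or removed. UMI counts of members were summed per library, and the 8 libraries with at least 10 members, all at E12.5, were tested with edgeR 4.0.16 (quasi-likelihood, robust, TMM, filterByExpr, Benjamini-Hochberg at 0.05), checked on simulated data. The planned average over stages therefore equals E12.5, and a contrast of stages could not be fitted. Other barcodes of the same libraries served for the test of the difference, with library as a block. Pairing comes from the labels, which state litter- and sex-matched pairs, and deviations from the group means correlated within pairs at 0.0638 (M1), 0.233 (M2), 0.0689 (F1) and 0.159 (F2). Across pairs they correlated at -0.162 (WT M2 with het F2) to 0.0884 (WT F1 with het F2). The latter is above the F1 pair, so these values do not settle how the females are paired. Libraries are the replicates, so p-values measure the spread between embryos. Shares were tested by permutation with numpy 2.4.6, and scipy 1.17.1 gave the binomial intervals and the adjustment over stages. Clusters used scanpy 1.11.5 (1500 variable genes, 15 components, 15 neighbours, resolution 0.5). Named genes are those of the lists, the 5 of lowest p in each direction at a log2 CPM of at least 5, Chd8, Crlf2, Zcwpw1, Car14 and Gsta4, and the 30 of highest ratio to other barcodes. Predicted genes, mitochondrial genes, Xist and genes of the Y chromosome were left out of the ranked ones. One gene that this rule names is not reported here. Positions are from GENCODE M21 (GRCm38), which held 99.6% of the gene identifiers. Whether counting used strand is not given in the sources used here. Alternatives were other collagen thresholds, thinning, size factors, filters, DESeq2 1.42.0, the pair as a block and each library left out.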

Additional observations from a re-analysis of the deposited data

Results flagged for a closer look

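In 6 of 42 groups of 4 libraries 1 library stood far from the other 3. Chance gives about 1 group in 20 for continuous values, a rate that does not hold for groups of shares with 1 value above 0, which meet the criterion by construction. For the share of fibroblasts these were Chd8 het M1 at E14.5 (0.0485%), Chd8 het M2 at E16.0 (0.0135%) and WT M1 at E17.5 (0.0697%), and the other 3 libraries of each group had 0 members. For gene levels at E12.5, Rps12 stood at 1785 CPM in WT M2, Slc1a3 at 348 CPM in WT M1, and Col3a1, a gene of the rule, at 3322 CPM in WT M1.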

How the results depend on the processing

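The share at E12.5 was lower in Chd8 het under every alternative run. It passed an unadjusted p of 0.05 with at least 20 collagen UMIs (-0.454 points) and with barcodes thinned to 2000 UMIs (-0.286), and single libraries left out gave -0.477 to -0.272. The cause was not tested. The difference averaged over stages was -0.0993 without members of 0.2% or more neural marker UMIs (p = 0.0561, permutation test), an alternative chosen after seeing the data, and -0.126 to -0.0743 with 1 library left out. At E14.5 it ran from -0.0231 to 0.00566, reversed without WT M1. With the replicate pair as a block, 14 genes were called in place of 0, and the averaged share difference had p = 0.0156 (exact permutation test), which rests in part on later pairs with few members. Without the filter on low counts 17 genes were called, without the M2 pair 48 (chosen after seeing the data), and with 1 library left out 0 to 76. The 14 and the 48 shared 10 genes. For the difference between fibroblasts and other barcodes the count was 10 without the filter (Wls, Msx1, Lum, Dcn and, of the rule, Col1a1 and Col1a2 among them), 1 with at least 20 members per library (Acta2), 1 without members of high neural UMIs (Wls), 3 without the M2 pair (Wls, Msx1 and Hsp90b1), 1 by DESeq2, and 0 to 5 with 1 library left out, the 5, without WT M2, being Wls, Msx1, Hsp90b1, Dcn and Col1a2. The log2 fold change of Col1a1 ran from -0.26 to 0.10, above 0 without het M2. The planned limit of 1% neural UMIs left out no member and so tests nothing, and the contrast of stages in gene levels was not run. Depth limits genes of few UMIs: in het F1, with 94724 fibroblast UMIs, a count of 0 allows up to 31.7 CPM.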
